A study of Homo sapiens with 30 samples.

Results

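Ribosome biogenesis genes encode the nucleolar proteins that transcribe, modify, cut and fold ribosomal RNA and assemble it with ribosomal proteins. The set described here was a list of 44 such genes, named by symbol and chosen with earlier results of these data known. Of these, 35 had a probe set that the platform annotation assigns to that gene alone, and all 35 lay above the 25th percentile of every array and were tested, out of 10048 genes tested in all. The probe sets of NOP56, DKC1, BOP1 and PPAN are assigned to several genes, and NOP58, GNL3, EBNA1BP2, DDX18 and NOB1 have no probe set listed, so these 9 were not analysed here.

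Ribosomal RNA is made by RNA polymerase I in the nucleolus, where small nucleolar ribonucleoproteins (snoRNPs) guide its chemical modification. The small subunit processome then forms on the new transcript and releases the small subunit precursor, while another set of factors, among them the PeBoW complex, builds the large subunit. The pathway uses much of a growing cell's resources and is a well-known target of the transcription factor MYC, which binds the E-box sequence CACGTG with its partner MAX.

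The cells were THP-1, an established human acute monocytic leukaemia line that grows in suspension. In every group, controls included, phorbol 12-myristate 13-acetate (PMA, 82 nM for 24 h) had first turned them into adherent macrophage-like cells, which were scraped and replated. They then received no particles (control), multi-walled carbon nanotubes (MWCNT, hollow carbon fibres) or titanium dioxide nanobelts (TiO2-NB, ribbon-shaped crystals) at 10 or 100 µg/ml, for 1 or 24 h. The 10 groups held 3 arrays each, labelled as biological replicates of this single line, and nothing in the labels says whether these came from separate cultures, so p-values measure the spread between these arrays. Each value is a log2 signal of an Affymetrix array of total RNA. A level was not compared between genes, because each probe set has its own response.

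Array medians lay between 6.35 and 6.46, and arrays of a group correlated at 0.991 or higher. Of 11 monocyte and macrophage markers measured, 9 lay above the 25th percentile on all 30 arrays. TYROBP, an adaptor of myeloid receptors, ran from 12.62 to 13.30, whereas the Fc receptor gene FCGR1A lay below that percentile on all arrays. Markers of other cell types were mixed: 4 of 8 epithelial, 4 of 5 lymphocyte and 3 of 6 fibroblast markers measured also lay above it on all 30 arrays, among them KRT8 (5.57 to 6.03), CD3D (5.19 to 5.74) and COL1A1 (7.66 to 8.22). EPCAM, CDH1 and KRT19 of epithelia, MS4A1 of B cells and LUM and COL3A1 of fibroblasts lay below it on every array. This percentile is a low bar, and a signal above it does not show that a gene is expressed.

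In cells kept for 24 h with 100 µg/ml MWCNT, 20 of the 35 measured ribosome biogenesis genes were called higher than in the 24 h control. All 35 had a positive log2 difference, with a median of 0.33 and a range of 0.01 to 0.53, while the median over all genes tested was -0.01. The test was limma with Benjamini-Hochberg adjustment over all genes. By it 0 members fell, and 28 had an unadjusted p under 0.05, as did 2583 of the 10048 genes tested. The 20 are 57.1% of the members, whereas over all genes tested 13% were called and 8.99% were called higher. For 30 of the 35 members all 3 MWCNT arrays lay above all 3 control arrays, which held for 17.1% of all genes tested. The rises were small in size, at most 1.44-fold. In RNA from whole cultures, a change in the amount per cell and a change in the mix of cells cannot be told apart.

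**Figure D1:**
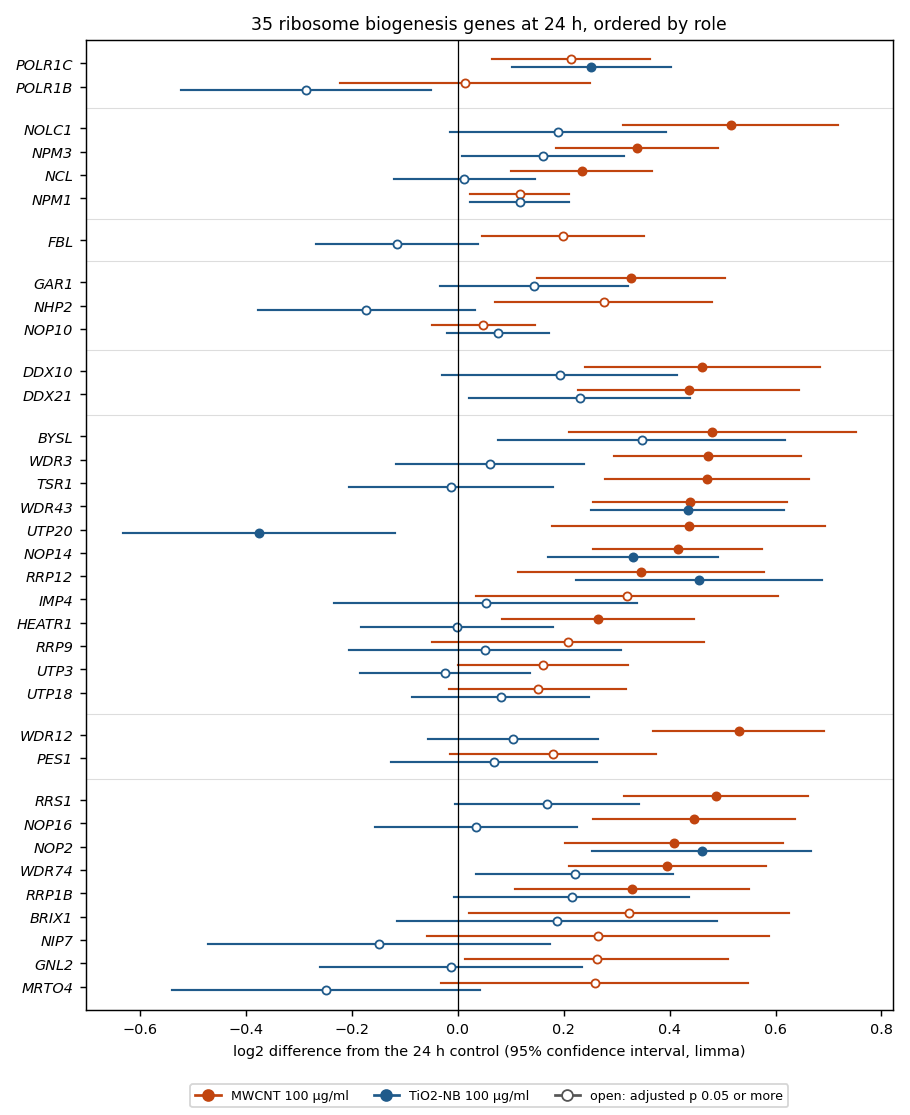
Log2 difference of each of the 35 genes from the 24 h control (x axis; y axis, genes ordered by role from RNA polymerase I at the top to large subunit assembly at the bottom), with 95% confidence intervals of the limma fit, n = 3 arrays per group. Filled points passed an adjusted p of 0.05; the MWCNT points (red) all lie to the right of 0, with WDR12 at 0.53 as the farthest, and the TiO2-NB points (blue) run from -0.38 for UTP20 to 0.46 for NOP2.

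The 2 measured members for subunits of RNA polymerase I, which starts the pathway, gave small differences. POLR1B, the second-largest subunit, read 7.16, 6.90 and 6.98 with MWCNT and 6.87, 7.03 and 7.10 in the control, and these overlapped (0.01 ± 0.11, adjusted p = 0.959). POLR1C, a subunit shared with RNA polymerase III, differed by 0.21 ± 0.07 and missed the threshold (adjusted p = 0.0524). Neither of these 2 members was called, while the subunit POLR1E, which is not a member, rose by 0.33 ± 0.08 (adjusted p = 0.00713).

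Among the abundant nucleolar phosphoproteins and chaperones, 3 of 4 rose. NOLC1, a chaperone of snoRNPs, read 9.66, 9.52 and 9.54 on the MWCNT arrays and 8.96, 8.97 and 9.24 on the control arrays. All MWCNT arrays were the higher, and the rise was 0.52 ± 0.10 on the log2 scale (SE; 1.43-fold, adjusted p = 8.07e-04). NPM3, a small nucleoplasmin, rose by 0.34 ± 0.07 (adjusted p = 0.00264). Nucleolin (NCL), which binds nascent ribosomal RNA, rose by 0.23 ± 0.06 (adjusted p = 0.0155). Nucleophosmin (NPM1), the histone chaperone that shapes the granular part of the nucleolus, differed by 0.12 ± 0.05 and was not called (adjusted p = 0.0927).

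Of the snoRNP core proteins, GAR1, part of the pseudouridine-forming box H/ACA particle, rose by 0.33 ± 0.09 (adjusted p = 0.0113). Its partners NHP2 (0.28 ± 0.10, adjusted p = 0.0691) and NOP10 (0.05 ± 0.05, adjusted p = 0.570) were not called. Fibrillarin (FBL), the methyltransferase of the box C/D particle, read 10.71, 10.69 and 10.70 against 10.50, 10.42 and 10.58 in the control. Its arrays did not overlap, yet the difference of 0.20 ± 0.07 missed the threshold (adjusted p = 0.0803).

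Both measured DEAD-box RNA helicases rose. DDX10, needed for small subunit maturation, read 9.21, 9.14 and 9.06 with MWCNT and 8.55, 8.67 and 8.80 in the control. DDX21, which acts in transcription and processing of ribosomal RNA, read 11.18, 11.03 and 11.00 against 10.50, 10.63 and 10.78. In each the groups lay apart, and the rises were 0.46 ± 0.11 (adjusted p = 0.00456) and 0.44 ± 0.10 (adjusted p = 0.00435).

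The small subunit processome and its later maturation factors held 8 of the 20 called genes, out of 12 measured. BYSL (bystin), which acts late on the small subunit precursor, read 9.38, 9.30 and 9.23 with MWCNT and 8.70, 8.73 and 9.04 in the control. The lowest MWCNT array exceeded the highest control array, and the rise was 0.48 ± 0.13 (1.40-fold, adjusted p = 0.0144). WDR3, of the UtpB subcomplex, had arrays at 10.07, 10.04 and 10.08 with MWCNT and at 9.41, 9.62 and 9.74 without. The MWCNT arrays lay within 0.04 of each other and above all controls, a rise of 0.47 ± 0.09 (adjusted p = 4.63e-04).

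TSR1, a GTPase-like factor of the late small subunit precursor, read 8.26, 8.10 and 8.11 with MWCNT and 7.58, 7.72 and 7.76 in the control. These lay apart by more than the range of either group, and the rise was 0.47 ± 0.09 (adjusted p = 0.00112). WDR43, of the UtpA subcomplex that binds the start of the transcript, read 9.32, 9.22 and 9.14 against 8.65, 8.90 and 8.82. It rose by 0.44 ± 0.09 (adjusted p = 0.00131), with no overlap. UTP20, NOP14, RRP12 and HEATR1 rose by 0.27 to 0.44, and IMP4, RRP9, UTP3 and UTP18 (0.15 to 0.32) were not called.

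Large subunit assembly gave the largest single rise. WDR12, which with PES1 and BOP1 forms the PeBoW complex, read 10.42, 10.44 and 10.34 with MWCNT and 9.79, 9.81 and 10.01 in the control. All MWCNT arrays were higher than all of the controls, by 0.53 ± 0.08 on average (1.44-fold, adjusted p = 5.36e-05). Its partner PES1 differed by 0.18 ± 0.09 (adjusted p = 0.240), with overlapping arrays.

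Among 9 further large subunit factors 5 rose. RRS1, which helps to dock the small ribosomal RNA of the large subunit, read 10.59, 10.39 and 10.35 with MWCNT and 9.88, 9.95 and 10.05 in the control. NOP16, a factor of the early nucleolar particle, read 10.84, 10.67 and 10.70 against 10.21, 10.18 and 10.48. Neither overlapped its control, and the rises were 0.49 ± 0.08 (adjusted p = 2.80e-04) and 0.45 ± 0.09 (adjusted p = 0.00166). The RNA methyltransferase NOP2, WDR74 and RRP1B rose by 0.41, 0.40 and 0.33, and BRIX1, NIP7, GNL2 and MRTO4 (0.26 to 0.32) were not called.

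For 11 of the 35 genes the lowest of the 3 MWCNT arrays at 24 h lay above all 27 arrays of the other groups, which held for 3.26% of all genes tested. They were WDR12, NOLC1, RRS1, WDR3, TSR1, DDX10, NOP16, UTP20, WDR74, FBL and RRP9. Of the 20 rises, 13 passed the threshold in all 14 alternative analyses, and leaving out array 1 of the control or array 1 of the MWCNT group left 13 calls. Those lost in both cases were BYSL, GAR1, NCL, UTP20, HEATR1, RRP12 and RRP1B, with highest adjusted p over the alternatives of 0.0875, 0.0880, 0.0942, 0.158, 0.272, 0.620 and 0.226. Array 1 was the highest MWCNT array for 27 of the 35 genes, and array 3 the highest control array for 27.

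Probe sets of 1 gene did not always give the same difference. The other kept probe sets of NOLC1 (0.41 and 0.28), HEATR1 (0.36), POLR1C (0.26) and NPM1 (0.17 and 0.20) were also higher with 100 µg/ml MWCNT at 24 h. Those of RRP12 (-0.04 and -0.06) and RRP1B (0.01) were not, while NOP16 had 1 further probe set at 0.50 and a pair of others at -0.16 and 0.02. For TSR1 the others gave 0.50 and -0.07, for WDR74 0.14 and for UTP18 0.02.

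**Figure D2:**
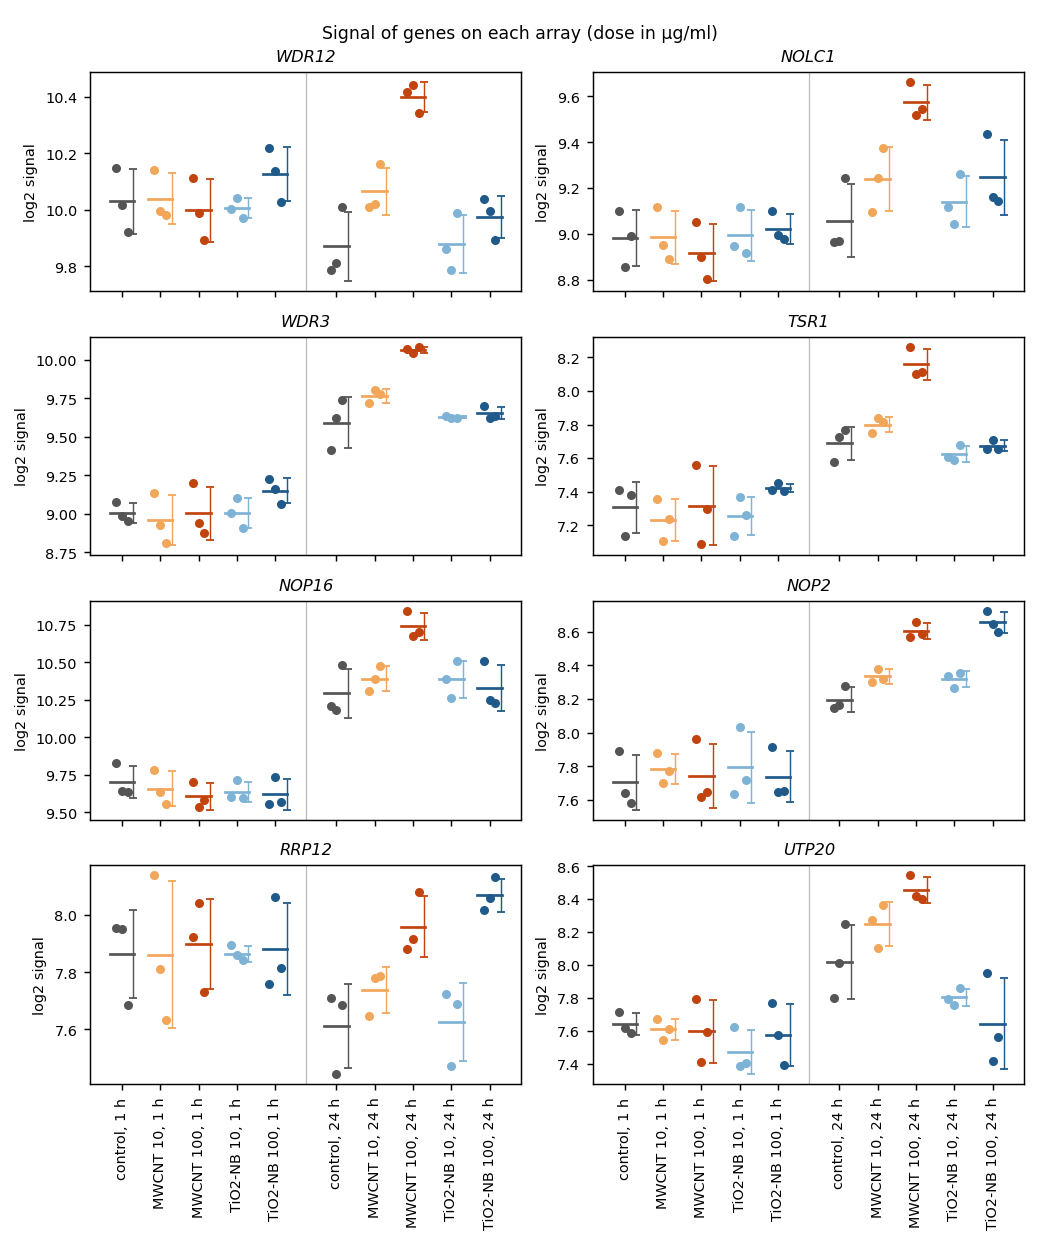
Log2 signal (y axis, its own range in each panel) of 8 ribosome biogenesis genes on each array, by group (x axis; 1 h groups left of the grey line, 24 h groups right). Points are arrays, horizontal bars group means and error bars SD of 3 arrays; in the WDR12 panel the 3 arrays of 100 µg/ml MWCNT at 24 h, 10.34 to 10.44, lie above all others, and in the UTP20 panel 2 of the 3 arrays of 100 µg/ml TiO2-NB at 24 h are the lowest of the 24 h arrays.

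MYC itself, the transcription factor named above, read 11.10, 10.85 and 10.77 with 100 µg/ml MWCNT at 24 h and 10.19, 10.14 and 10.63 in the control. All MWCNT arrays were higher, array 3 of the control being the nearest, and the rise was 0.59 ± 0.14 (adjusted p = 0.00607). Of the 11 measured genes of the MYC network it was the sole one called in this comparison, and the network's median was -0.06.

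Promoter windows, from 250 bases before to 50 bases after the annotated start, were taken from RefSeq (GRCh38.p14) for 37 of the 44 genes and 31 of the 35 measured. Those of BOP1, NOP58, NOLC1, RRP1B, RRS1, RRP12 and DDX18 were missing. For BYSL, PES1, NPM1 and WDR74 the start used lies inside the annotated gene and not at its 5′ end. The E-box CACGTG, which reads the same on both strands and is contained in the wider E-box CANNTG, was found in 13 of the 31 windows (41.9%). It was found in 816 of 8131 windows of all genes tested (10.0%) and in 1407 of 15842 windows of protein-coding genes (8.88%). CANNTG was found in 67.7% of the 31 windows and in 61.5% of those of all genes tested.

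In all 13 windows a CACGTG began no earlier than 30 bases before the start, which held for 2.83% of the windows of all genes tested; the limit of 30 bases was chosen after the positions were seen. They belong to PES1, NOP2, NOP14, FBL, NOP10, UTP18, UTP20, WDR43, RRP9, BYSL, MRTO4, GNL2 and IMP4, of which NOP10, UTP18 and IMP4 hold 2 copies. Of the 20 genes that rose with 100 µg/ml MWCNT at 24 h, 16 had a window and 5 of these held CACGTG, against 8 of the 15 windows of the other members. For those that rose with TiO2-NB at the same dose and time the counts were 3 of 4 against 10 of 27, for those higher with MWCNT than with TiO2-NB 3 of 10 against 10 of 21, and for those that rose with time in the control 6 of 14 against 7 of 17. These differences were not tested. A match describes the letters of the window and shows neither binding nor its effect.

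The 5 windows with CACGTG among the genes that rose with MWCNT are printed to show where the motif lies, with that of WDR12, the gene with the largest rise, which holds neither form. They lie at chr2:28894417-28894716, plus strand (WDR43), chr4:2963357-2963656, minus strand (NOP14), chr12:101279855-101280154, plus strand (UTP20), chr6:41921249-41921548, plus strand (BYSL), chr12:6568242-6568541, minus strand (NOP2) and chr2:202911624-202911923, minus strand (WDR12). Each is written 5′ to 3′ on the strand of the gene, and capitals mark CACGTG. Counted from the start base as 0, the motif begins at 3 in WDR43, 15 in NOP14, -10 in UTP20, 28 in BYSL and 35 in NOP2.
WDR43: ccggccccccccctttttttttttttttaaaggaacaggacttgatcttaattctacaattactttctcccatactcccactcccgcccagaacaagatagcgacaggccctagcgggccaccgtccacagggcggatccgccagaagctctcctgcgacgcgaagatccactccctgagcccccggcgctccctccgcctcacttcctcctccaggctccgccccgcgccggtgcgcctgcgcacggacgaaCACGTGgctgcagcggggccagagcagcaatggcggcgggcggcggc
NOP14: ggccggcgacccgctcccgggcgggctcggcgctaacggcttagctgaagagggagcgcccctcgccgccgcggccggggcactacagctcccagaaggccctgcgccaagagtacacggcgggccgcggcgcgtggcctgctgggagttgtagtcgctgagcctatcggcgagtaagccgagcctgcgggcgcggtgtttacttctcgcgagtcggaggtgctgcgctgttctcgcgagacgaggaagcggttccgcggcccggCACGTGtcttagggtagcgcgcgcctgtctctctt
UTP20: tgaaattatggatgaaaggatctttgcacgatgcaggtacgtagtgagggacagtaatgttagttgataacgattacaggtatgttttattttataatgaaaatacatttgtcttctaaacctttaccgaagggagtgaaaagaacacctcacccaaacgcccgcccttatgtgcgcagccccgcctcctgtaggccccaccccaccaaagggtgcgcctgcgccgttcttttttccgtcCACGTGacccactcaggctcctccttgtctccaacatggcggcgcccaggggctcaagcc
BYSL: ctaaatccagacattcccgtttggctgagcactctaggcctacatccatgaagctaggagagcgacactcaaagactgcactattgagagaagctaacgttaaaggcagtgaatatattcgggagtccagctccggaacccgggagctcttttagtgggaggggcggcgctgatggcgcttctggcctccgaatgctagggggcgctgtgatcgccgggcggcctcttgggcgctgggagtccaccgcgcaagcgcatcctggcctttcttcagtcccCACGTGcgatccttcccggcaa
NOP2: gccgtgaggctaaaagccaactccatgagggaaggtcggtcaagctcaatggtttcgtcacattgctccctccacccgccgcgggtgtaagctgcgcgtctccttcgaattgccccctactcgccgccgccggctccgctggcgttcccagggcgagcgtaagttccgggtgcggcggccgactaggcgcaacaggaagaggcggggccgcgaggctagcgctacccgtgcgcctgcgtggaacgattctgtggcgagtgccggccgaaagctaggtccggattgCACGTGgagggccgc
WDR12: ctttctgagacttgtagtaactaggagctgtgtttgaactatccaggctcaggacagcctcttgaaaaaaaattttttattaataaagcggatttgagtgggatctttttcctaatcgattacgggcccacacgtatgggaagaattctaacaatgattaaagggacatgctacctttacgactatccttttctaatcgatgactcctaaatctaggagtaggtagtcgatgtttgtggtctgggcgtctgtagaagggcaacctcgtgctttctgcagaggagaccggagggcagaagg

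With 100 µg/ml TiO2-NB for 24 h, 5 of the 35 ribosome biogenesis genes rose and 1 fell by limma, while 22.1% of all genes tested were called, 10.9% higher and 11.1% lower. With 14.3% of the members higher and 2.86% lower, the share of rises was near that of all genes and the share of falls under it. The members' median was 0.08, against 0.01 for all genes, and 25 of 35 differences were positive. This comparison shares its control arrays with that of MWCNT, so their values are given side by side and no overlap between them is read.

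NOP2, the methyltransferase of the large subunit RNA, read 8.72, 8.65 and 8.60 with TiO2-NB and 8.14, 8.16 and 8.28 in the control. The groups lay apart, and the rise was 0.46 ± 0.10 (1.38-fold, adjusted p = 0.00147), beside 0.41 ± 0.10 with MWCNT. RRP12, an export and maturation factor, read 8.02, 8.06 and 8.13 against 7.71, 7.44 and 7.69. It rose by 0.46 ± 0.11 (adjusted p = 0.00442), beside 0.35 ± 0.11 with MWCNT, and its other probe sets were higher with TiO2-NB by 0.30 and 0.33.

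WDR43, of the small subunit processome, read 9.39, 9.04 and 9.24 with TiO2-NB. NOP14, of the same particle, read 8.89, 8.74 and 8.85 with TiO2-NB, 8.42, 8.52 and 8.55 in the control and 8.95, 8.90 and 8.89 with MWCNT. In both genes all arrays with TiO2-NB lay above those of the control, and the rises were 0.43 ± 0.09 (adjusted p = 8.34e-04) and 0.33 ± 0.08 (adjusted p = 0.00296). POLR1C read 9.57, 9.68 and 9.59 with TiO2-NB against 9.32, 9.30 and 9.45, again without overlap, and rose by 0.25 ± 0.07 (adjusted p = 0.0134).

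UTP20, a very large scaffold protein of the small subunit processome, fell. Its arrays read 7.95, 7.42 and 7.56 with TiO2-NB and 7.80, 8.01 and 8.25 in the control. Array 1 of TiO2-NB lay above array 1 of the control, so the groups overlapped, and the difference was -0.38 ± 0.12 (adjusted p = 0.0314), beside a rise of 0.44 ± 0.12 with MWCNT. The calls of UTP20 and POLR1C were each lost when single arrays were left out: for UTP20 replicate 2 or 3 of either group (adjusted p up to 0.181 over all alternatives), for POLR1C replicate 1 or 2 of the control or 2 of TiO2-NB (up to 0.0856). The other 4 passed in all 14 alternatives. MYC differed by 0.01 ± 0.14 (adjusted p = 0.966), with arrays at 10.71, 10.18 and 10.10.

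Set directly against each other at 100 µg/ml and 24 h, MWCNT gave the higher signal in 31 of the 35 genes. By limma 12 were higher with MWCNT and 0 lower, 34.3% of the members, while 24.9% of all genes tested were called and 14% were higher, and the members' median difference was 0.21. In the ordering by role, the genes called were FBL and NHP2 of the snoRNPs, NCL and NOLC1, the small subunit factors UTP20, TSR1, WDR3 and HEATR1, and the large subunit factors WDR12, MRTO4, NOP16 and RRS1.

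UTP20 parted the materials most. Against 7.95, 7.42 and 7.56 with TiO2-NB it read 8.54, 8.42 and 8.40 with MWCNT. No array overlapped, and the difference was 0.81 ± 0.12 (1.75-fold, adjusted p = 5.53e-05). MRTO4, a stalk protein homologue that acts on the large subunit precursor, read 9.52, 9.39 and 9.41 with MWCNT and 9.11, 8.93 and 8.76 with TiO2-NB, with the control between them at 9.16, 9.11 and 9.28. The materials differed by 0.51 ± 0.14 (adjusted p = 0.0106) without overlap, though neither differed from the control past the threshold (0.26 and -0.25).

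NHP2 read 11.45, 11.44 and 11.34 with MWCNT, 11.01, 11.00 and 10.87 with TiO2-NB and 11.05, 10.99 and 11.36 in the control. The control overlapped each material, while the materials lay apart and differed by 0.45 ± 0.10 (adjusted p = 0.00208). FBL read 10.47, 10.41 and 10.27 with TiO2-NB, below all of its MWCNT arrays, and differed by 0.31 ± 0.07 (adjusted p = 0.00358). TSR1 read 7.66, 7.71 and 7.66 with TiO2-NB, within the range of the control, and WDR3 9.70, 9.62 and 9.64. Both lay below all of their MWCNT arrays, by 0.48 ± 0.09 (adjusted p = 6.30e-04) and 0.41 ± 0.09 (adjusted p = 0.00126).

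With TiO2-NB, WDR12 read 10.04, 9.99 and 9.89, NOP16 10.51, 10.25 and 10.23 and RRS1 10.30, 10.05 and 10.04. NOLC1 read 9.44, 9.16 and 9.15. In these 4 the highest TiO2-NB array was array 1, and it still lay under the lowest MWCNT array. The differences were 0.43 ± 0.08, 0.41 ± 0.09, 0.32 ± 0.08 and 0.33 ± 0.10 in that order (adjusted p = 3.78e-04, 0.00232, 0.00771 and 0.0182).

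Members called against the control with TiO2-NB and not between the materials had these direct differences, MWCNT minus TiO2-NB: WDR43 at 0.00 (95% confidence interval -0.18 to 0.19), NOP2 at -0.05 (-0.26 to 0.15), NOP14 at 0.08 (-0.08 to 0.24), RRP12 at -0.11 (-0.34 to 0.12) and POLR1C at -0.04 (-0.19 to 0.11). Array 1 of TiO2-NB was the highest of its group for 31 of the 35 genes, and without it 20 members differed between the materials. The share of all genes called without that array is not given here, so the larger count is not read as particular to the members. The calls of UTP20, TSR1, WDR12, WDR3, NHP2 and FBL held in all 14 alternatives. Those of NOP16, NCL, NOLC1, RRS1, MRTO4 and HEATR1 were lost in at least 1, with highest adjusted p of 0.0837, 0.108, 0.0827, 0.0698, 0.0616 and 0.158. The call of NOP16 was lost with the mean of all its probe sets and in no other alternative. For the others a single left-out array sufficed. This was array 1 of MWCNT for NCL, NOLC1, RRS1 and HEATR1, and array 2 of TiO2-NB for NCL, NOLC1 and HEATR1. Leaving out array 3 of TiO2-NB ended the calls of MRTO4, NCL, NOLC1 and HEATR1. MYC was higher with MWCNT by 0.58 ± 0.14 (adjusted p = 0.00483).

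At 10 µg/ml and 24 h no ribosome biogenesis gene passed the threshold. With MWCNT, 34 of 35 differences from the control were positive, with a median of 0.12 and a highest value of 0.23 (UTP20), and 3 members had an unadjusted p under 0.05. Over all genes tested limma called 0 (0%), with 421 at an unadjusted p under 0.05. For 34 of the 35 genes the group means stood in the order control, 10 and 100 µg/ml MWCNT. This order was not counted over all genes tested. Of those 10048 genes, 5627 had a positive difference from the control at 10 µg/ml and 4723 at 100 µg/ml. The members were read from the same arrays, so they do not count as separate observations. WDR12 gave means of 9.87 ± 0.12, 10.06 ± 0.08 and 10.40 ± 0.05 (SD, n = 3) in that order, and POLR1B was the exception at 7.0 ± 0.12, 6.86 ± 0.11 and 7.01 ± 0.13. MYC read 10.47, 10.44 and 10.73, a difference of 0.23 ± 0.14 (adjusted p = 1.00).

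Direct comparison of 100 with 10 µg/ml MWCNT gave higher values at the high dose in all 35 genes, with a median of 0.20, and 5 were called, 14.3% of the members, where 4.67% of all genes tested were called and 3.11% were higher. They were TSR1 (0.36 ± 0.09), NOP16 (0.35 ± 0.09), WDR12 (0.34 ± 0.08), WDR3 (0.30 ± 0.09) and NPM3 (0.27 ± 0.07), with adjusted p from 0.0117 to 0.0454. This count rested on every array: without array 1 or 2 of the 10 µg/ml group or array 2 of the 100 µg/ml group 0 were called, 1 without array 3 of the 100 µg/ml group, 2 without its array 1, and 3 without array 3 of the 10 µg/ml group. MYC differed by 0.36 ± 0.14 (adjusted p = 0.176).

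With 10 µg/ml TiO2-NB at 24 h, 23 of 35 differences were positive, from -0.29 (MRTO4) to 0.20 (RRP1B), with 0 members called, 1 with an unadjusted p under 0.05 and 0.0199% of all genes tested called. MYC differed by 0.01 ± 0.14 (adjusted p = 0.999). Between 100 and 10 µg/ml TiO2-NB, RRP12 (0.44 ± 0.11), NOP2 (0.34 ± 0.10), WDR43 (0.28 ± 0.09), POLR1C (0.25 ± 0.07) and NOP14 (0.25 ± 0.08) were higher at the high dose (adjusted p from 0.00927 to 0.0374), where 13.5% of all genes tested were called and 7.38% were higher. MYC differed by 0.00 ± 0.14 (adjusted p = 0.995). Leaving out array 2 of the 10 µg/ml group left 0 calls, leaving out array 1 of either group left 2, and leaving out array 2 or 3 of the 100 µg/ml group left 3. Between the materials at 10 µg/ml, 0 members were called (0.00995% of all genes tested), with UTP20 at 0.45 ± 0.12 (unadjusted p = 0.00153, adjusted p = 0.192) and MRTO4 at 0.46 ± 0.14 (unadjusted p = 0.00354, adjusted p = 0.237) higher with MWCNT, and MYC at 0.22.

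**Figure D3:**
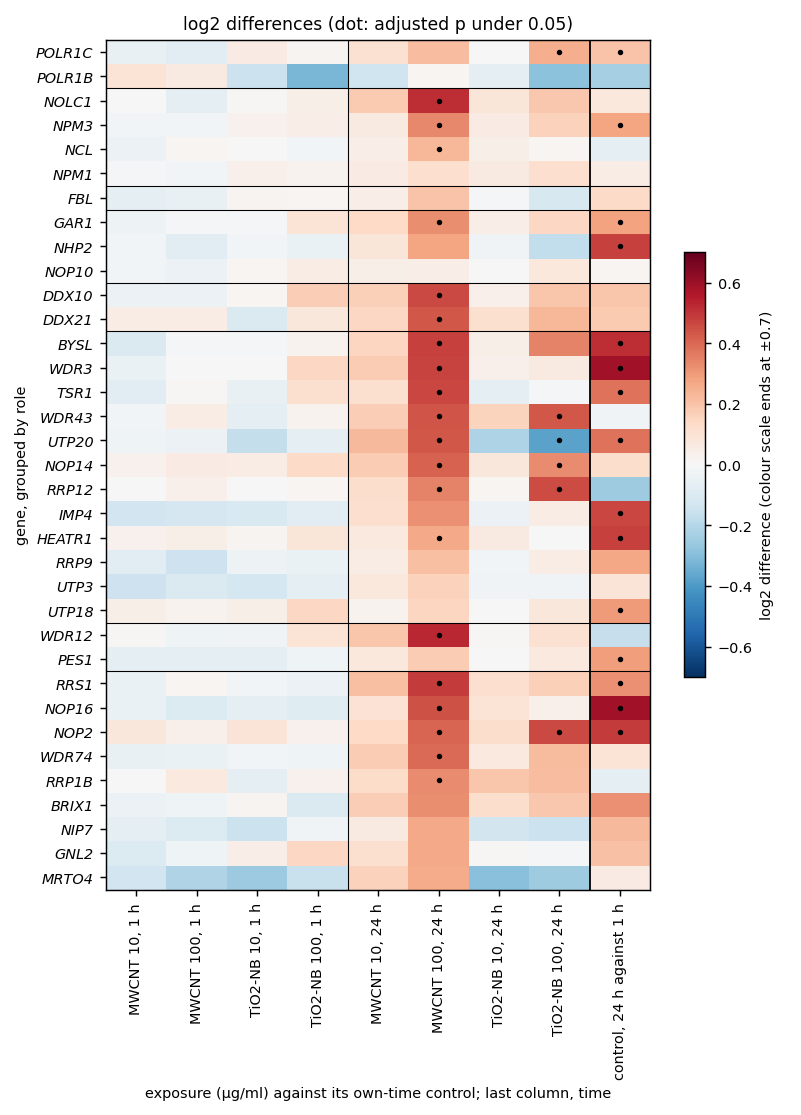
Log2 differences of the 35 genes (rows, grouped by role as in the plot of intervals) from the control of the same time in each of 8 exposures, and between the 24 h and 1 h controls in the last column. Dots mark an adjusted p under 0.05; the column of 100 µg/ml MWCNT at 24 h is the sole exposure with all 35 values above 0 and holds 20 dots, against 6 for 100 µg/ml TiO2-NB at 24 h and 0 in each of the 4 columns at 1 h.

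After 1 h no member was called in any exposure. With 100 µg/ml MWCNT 12 of 35 differences were positive, from -0.21 (MRTO4) to 0.07 (RRP1B), and 0 had an unadjusted p under 0.05. Limma called 0% of all genes tested there, as with 10 µg/ml of either material, where 9 (MWCNT) and 14 (TiO2-NB) of 35 were positive. In these 3 comparisons 293, 162 and 213 genes had an unadjusted p under 0.05, in that order, and 0 of them were members. With 100 µg/ml TiO2-NB, 21 of 35 were positive and 1.15% of all genes tested were called. The sign of the members' median there (0.02) turned to -0.06 with arrays centred on their medians.

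POLR1B came nearest to a call at 1 h. It read 6.96, 6.82 and 6.95 with 100 µg/ml TiO2-NB and 7.37, 7.12 and 7.19 in the 1 h control. All TiO2-NB arrays lay under the controls, a difference of -0.32 ± 0.11 (unadjusted p = 0.00983, adjusted p = 0.159). It was also 0.38 ± 0.11 higher with MWCNT than with TiO2-NB at 100 µg/ml (adjusted p = 0.0882), in a comparison with 0 members and 1.42% of all genes tested called. MYC gave 1 h differences from the control of 0.04 and 0.11 with 10 and 100 µg/ml MWCNT and 0.03 and 0.17 with TiO2-NB, none of which passed the threshold, and -0.06 between the materials at 100 µg/ml.

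Without particles, 15 of the 35 ribosome biogenesis genes rose from 1 to 24 h and 0 fell by limma, while 6 had a negative difference that was not called. The 15 are 42.9% of the members, where 20.8% of all genes tested were called higher and 36.9% in either direction. The members' median was 0.20 against 0.03. NOP16 read 10.21, 10.18 and 10.48 at 24 h and 9.83, 9.65 and 9.64 at 1 h. WDR3 read 9.08, 8.99 and 8.95 at 1 h, below all 24 h controls. Both lay apart, and rose by 0.59 ± 0.09 (adjusted p = 1.75e-05) and 0.59 ± 0.09 (adjusted p = 6.65e-06).

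BYSL read 8.52, 8.16 and 8.23 at 1 h and NOP2 7.89, 7.64 and 7.58. HEATR1, a scaffold of the small subunit processome, read 9.57, 9.31 and 9.47 at 1 h and 9.78, 9.95 and 10.06 at 24 h. In these 3 no array overlapped, and the rises were 0.52 ± 0.13, 0.49 ± 0.10 and 0.48 ± 0.09 (adjusted p = 0.00293, 3.62e-04 and 1.18e-04). NHP2 read 10.64, 10.75 and 10.57 at 1 h, and IMP4, which joins the U3 snoRNA to the transcript, 8.99, 8.92 and 8.64 at 1 h and 9.24, 9.15 and 9.56 at 24 h. Their 24 h arrays were all higher, by 0.48 ± 0.10 (adjusted p = 4.49e-04) and 0.47 ± 0.14 (adjusted p = 0.00929).

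UTP20 (7.71, 7.62 and 7.59 at 1 h), TSR1 (7.41, 7.13 and 7.38) and RRS1 (9.74, 9.64 and 9.55) rose by 0.38 ± 0.12, 0.38 ± 0.09 and 0.32 ± 0.08 (adjusted p = 0.0178, 0.00213 and 0.00415), again without overlap. UTP18, PES1, GAR1, NPM3 and POLR1C rose by 0.20 to 0.30. WDR12 (-0.16 ± 0.08, adjusted p = 0.118), RRP12 (-0.25 ± 0.11, adjusted p = 0.0862) and POLR1B (-0.23 ± 0.11, adjusted p = 0.122) were the lowest of the 6 members with a negative difference. The calls of PES1, UTP20, POLR1C, IMP4 and TSR1 were not kept in all alternatives (adjusted p up to 0.122, 0.133, 0.225, 0.0763 and 0.120), the first 4 being lost without array 3 of either control. MYC read 9.92, 10.13 and 10.03 at 1 h and differed by 0.29 ± 0.14 (adjusted p = 0.117).

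The response to 100 µg/ml MWCNT was larger at 24 h than at 1 h for 34 of the 35 genes, by a median of 0.36 (all genes, -0.01). The test of that difference called 6, all larger at 24 h, 17.1% of the members, where 3.72% of all genes tested were called and 2.65% were larger: NOLC1 (0.58 ± 0.14), WDR12 (0.56 ± 0.11), NOP16 (0.54 ± 0.13), RRS1 (0.47 ± 0.12), WDR3 (0.47 ± 0.12) and TSR1 (0.46 ± 0.13), with adjusted p from 0.00494 to 0.05 (TSR1, just under the threshold). WDR12 was called in all 20 alternatives, and the others were not. Without array 1 of either control 1 member was called, 2 without array 2 of the 24 h control or of the 1 h MWCNT group, 3 without array 3 of the latter and 11 without its array 1. MYC differed by 0.48 ± 0.20 (adjusted p = 0.224).

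For 100 µg/ml TiO2-NB the same test called NOP2 (0.43 ± 0.14, adjusted p = 0.0394) and WDR43 (0.41 ± 0.12, adjusted p = 0.0274), 2 of the 35 (5.71%), where 16.3% of all genes tested were called and 7.49% were larger. No member remained without array 1 of either control or array 1 of TiO2-NB at 24 h, and 1 did without array 2 of the 24 h control, array 2 of either TiO2-NB group or array 3 of the 1 h TiO2-NB group. MYC differed by -0.16 ± 0.20 (adjusted p = 0.631).

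Other parts of the pathway were read from lists that hold no member and, like the members, were chosen with earlier results known. Of 57 further processing and assembly factors, 13 rose and 0 fell with 100 µg/ml MWCNT at 24 h (median 0.17), 22.8% called against 13% of all genes tested. The largest were PAK1IP1 (0.43 ± 0.09, adjusted p = 0.00128), which regulates large subunit assembly, MDN1 (0.43 ± 0.10, adjusted p = 0.00586), the giant ATPase of the large subunit precursor, and RRP15 (0.41 ± 0.11, adjusted p = 0.0173). With TiO2-NB 6 rose and 2 fell, led by TEX10 (0.55 ± 0.08) and GTPBP4 (0.50 ± 0.10) upward and ESF1 (-0.93 ± 0.22) downward, and between the materials 17 were higher with MWCNT and 1 lower. The share called was 14% with TiO2-NB, against 22.1% of all genes, and 31.6% between the materials, against 24.9%. In the control time comparison 26 rose, KRR1 most (0.95 ± 0.15), and 1 fell (DDX52, -0.38 ± 0.11), 47.4% called against 36.9% of all genes.

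The RNA exosome, which trims ribosomal RNA ends, had 4 of 9 measured subunits called higher with MWCNT (44.4%, against 13% of all genes), among them EXOSC9 (0.55 ± 0.12), EXOSC2 (0.47 ± 0.11) and EXOSC7 (0.31 ± 0.07), and 0 with TiO2-NB by limma (1 at an unadjusted p under 0.05). Of 11 further genes of RNA polymerase I transcription, TCOF1 (0.34 ± 0.10, adjusted p = 0.0259) and the subunit POLR1E (0.33 ± 0.08, adjusted p = 0.00713) rose with MWCNT (median of the list 0.20), 18.2% against 13% of all genes. With TiO2-NB the initiation factor RRN3 rose (0.44 ± 0.13, adjusted p = 0.0133) and TTF1, the terminator of ribosomal RNA transcription, fell (-1.29 ± 0.22, adjusted p = 1.03e-04), again 18.2%, against 22.1% of all genes. Between the materials 4 exosome (44.4%) and 3 RNA polymerase I genes (27.3%) were higher with MWCNT, where 24.9% of all genes were called. From 1 to 24 h in the control 1 (11.1%) and 4 (36.4%) rose, where 36.9% of all genes were called. For the 11 RNA polymerase I genes these shares are near those of all genes called in either direction. Their calls with MWCNT, between the materials and over time were all higher, however. In these comparisons 8.99%, 14% and 20.8% of all genes were called higher, less than the 18.2%, 27.3% and 36.4% of this list. With MWCNT 10 of the 11 differences were positive.

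The MYC network was called at 9.09% with MWCNT, 18.2% with TiO2-NB, 27.3% between the materials and 54.5% over time in the control, beside 13%, 22.1%, 24.9% and 36.9% of all genes. With TiO2-NB at 100 µg/ml and 24 h MGA (0.28 ± 0.10) and MNT (0.26 ± 0.08), MAX partners that oppose MYC, rose. Between the materials MNT (-0.32 ± 0.08) and MYCL (-0.49 ± 0.14) were lower with MWCNT, and over time in the control 2 of the 11 rose and 4 fell, MYC not among them. None of the lists named here had a gene called at 10 µg/ml and 24 h, against the control or between the materials. Between 100 and 10 µg/ml some of their genes were called. Examples are EXOSC2 with MWCNT (0.40 ± 0.11), and TEX10 (0.44 ± 0.08) and TTF1 (-0.69 ± 0.22) with TiO2-NB.

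Genes for the cytoplasmic ribosomal proteins, the parts that these factors assemble, gave small differences. Of 58 measured, 0 were called by limma with 100 µg/ml MWCNT at 24 h (2 at an unadjusted p under 0.05, median 0.03), 5 fell with TiO2-NB (median -0.03), RPL35 (-0.20 ± 0.05, adjusted p = 0.00419) among them, and 11 were higher with MWCNT than with TiO2-NB. From 1 to 24 h in the control 0 rose and 6 fell. The shares called were 8.62%, 19% and 10.3% in these last 3 comparisons, each under that of all genes called in either direction (22.1%, 24.9% and 36.9%). Between the materials, though, all 11 calls were higher with MWCNT, and 14% of all genes tested were called higher, less than the 19% of this list. There 55 of the 58 differences were positive, as were 4711 of the 10048 over all genes tested. Their mean log2 signal was 12.70 ± 0.01 (SD, n = 3 arrays) in the 24 h control, 12.73 ± 0.01 with MWCNT and 12.65 ± 0.01 with TiO2-NB.

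Cell cycle genes moved with the members in some comparisons and against them in another. With 100 µg/ml MWCNT at 24 h, 24 of 29 rose and 0 fell (82.8% called, against 13% of all genes), with a median of 0.93. The largest rises were those of TYMS (1.49 ± 0.23), CCNE2 (1.45 ± 0.29) and RRM2 (1.38 ± 0.24). With TiO2-NB 1 was called higher (MCM2, 0.84 ± 0.25), 3.45% against 22.1% of all genes. Still, 27 of the 29 differences with TiO2-NB were positive, with a median of 0.34, and 7 had an unadjusted p under 0.05 by limma. Between the materials 16 were higher with MWCNT, 55.2% called against 24.9% of all genes. From 1 to 24 h in the control 26 fell and 0 rose, with a median of -1.09, where 36.9% of all genes were called. Over the same time 15 of the 35 ribosome biogenesis genes rose and 0 fell.

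Over the 24 h groups the mean log2 signal of the 35 members was 9.27 ± 0.09 in the control, 9.39 ± 0.07 and 9.60 ± 0.06 with 10 and 100 µg/ml MWCNT, and 9.29 ± 0.08 and 9.37 ± 0.11 with TiO2-NB (SD, n = 3). That of the 29 cell cycle genes was 6.87 ± 0.16, 7.04 ± 0.16 and 7.72 ± 0.08, and 6.90 ± 0.24 and 7.17 ± 0.14 in the same order. Within each 24 h group the array with the highest member mean also had the highest cell cycle mean: array 3 in the control and both 10 µg/ml groups, and array 1 in both 100 µg/ml groups. The part of the cell cycle genes in the members' differences was not tested.

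**Figure D4:**
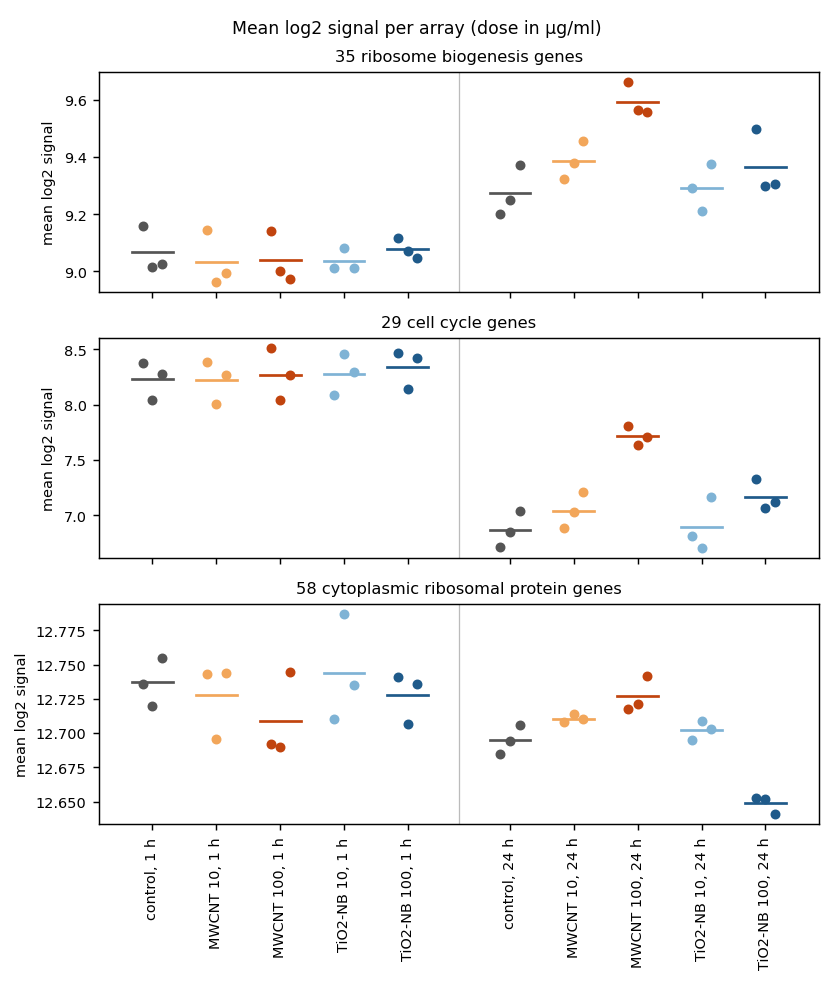
Mean log2 signal per array (y axis, its own range in each panel) of the 35 ribosome biogenesis genes, 29 cell cycle genes and 58 cytoplasmic ribosomal protein genes, by group (x axis; 1 h left of the grey line, 24 h right); points are arrays and bars group means. The ribosome biogenesis mean is lowest in the 1 h groups and highest with 100 µg/ml MWCNT at 24 h (9.60), while the cell cycle mean is highest at 1 h (8.22 to 8.34) and the ribosomal protein group means lie between 12.65 and 12.74.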

How the data were processed

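THP-1 total RNA was measured on 30 Affymetrix arrays, 10 groups of 3. The authors deposited 1 log2 intensity for each probe set and array, made with RMA (background correction, normalization between arrays and summary per probe set) per the submitters' processing notes; its version and software are not given in the sources used here. They were not normalized again, and RMA hides a shift shared by all genes.

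Of 22277 probe sets, 62 were controls; 19064 matched 1 gene, 1043 several and 2108 none in the platform annotation, and symbols were updated through RefSeq gene IDs. Probe sets above the 25th percentile of their array on at least 3 arrays were kept (15309), and each gene was read from its probe set of highest mean, giving 10048 genes. Limma 3.58.1 in R 4.3.3 fitted all 30 arrays with 10 group means (20 residual degrees of freedom; median residual SD 0.128; two-sided tests; Benjamini-Hochberg adjustment over all genes; called at an adjusted p under 0.05; errors of differences are SE) and was tested on simulated data. Precision is limited by the 3 arrays of each group.

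Members and lists were chosen with earlier results of these data known. Members were named by role, with all arrays for the 10 largest called rises and falls of each exposure, material or control time comparison; of each list, up to 3 called genes per direction were named, and MYC throughout. Alternatives changed the scaling, the filter, the probe sets, the arrays fitted, the variance model, the replicate block and each array left out.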

Additional observations from a re-analysis of the deposited data

Results flagged for a closer look

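The response to a material, its difference from the control of the same time, differed between 24 h and 1 h for 8 results, each by a test of that difference itself in the limma fit. With 100 µg/ml MWCNT the response was larger at 24 h for NOLC1 by 0.58, WDR12 by 0.56, NOP16 by 0.54, RRS1 by 0.475, WDR3 by 0.47 and TSR1 by 0.46 on the log2 scale. With 100 µg/ml TiO2-NB it was larger for NOP2 by 0.43 and WDR43 by 0.41. The 6 MWCNT results are 17.1% of the members, where 3.72% of all genes tested were called. The 2 TiO2-NB results are 5.71% of the members, where 16.3% of all genes tested were called. Only WDR12 kept its call in all 20 alternatives, and TSR1 lay at an adjusted p of 0.05. For NOLC1 the 1 h arrays read 9.05, 8.90 and 8.81 with MWCNT and 9.10, 8.86 and 8.99 in the control, which overlapped. Groups of 3 arrays are too small for a test of single outlying arrays.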

How the results depend on the processing

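The 71 calls of members were recomputed under 8 other settings and with each array left out, 1042 values in all. None reversed, 856 stayed on their side of the threshold and 186 lost the call; 34 calls were kept throughout. Apart from left-out arrays, 8 comparisons had 0 members called in every setting. With their counts included, 120 of 128 counts stayed within 1.5 times. The other 8 were these: 3 members differed between 100 and 10 µg/ml MWCNT (5 reported) with arrays centred on their medians and also with the mean of all probe sets; 2 between 100 and 10 µg/ml TiO2-NB (5 reported) with only the arrays compared; 10 in the MWCNT response between times (6 reported) under a stricter filter and 1 with only the arrays compared; and in the TiO2-NB response (2 reported) 5 with median centring, 4 with the mean of probe sets and 0 with only the arrays compared. Fitting fewer arrays leaves fewer degrees of freedom; the cause of the other changes was not tested.

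With arrays left out 1 at a time, counts ran from 13 to 21 (MWCNT at 100 µg/ml, 24 h), 4 to 7 (TiO2-NB), 8 to 20 (between the materials), 0 to 3 and 0 to 4 (100 against 10 µg/ml of MWCNT and of TiO2-NB), 12 to 16 (control time), 1 to 11 (MWCNT response between times) and 0 to 3 (TiO2-NB response), and stayed at 0 in the other 8 comparisons. The shares of all genes called with an array left out are not given here, so these changes are not read as particular to the members. Median centring moved the median of all genes by less than 0.1 in each comparison.

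Arrays are numbered 1 to 3 within a group in the labels. Of 60 pairs of equally numbered arrays 38 deviated together (correlation above 0.1) and 21 correlated below 0 (-0.53 to 0.73), so the numbers do not pair the arrays throughout. Among the 1 h groups other than 10 µg/ml TiO2-NB the correlations were 0.33 to 0.73. At 24 h the 100 µg/ml groups correlated with each other at 0.36 to 0.62. Their arrays 1 and 3 correlated with those of the control at -0.51 to -0.42. The source of this pattern was not tested. With the number as a replicate block, 21, 6, 13, 6, 5, 15, 7 and 2 members were called in the 8 comparisons in the order above and 0 in the others, and 1 call was lost, that of TSR1 in the MWCNT response (adjusted p = 0.0503).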

Other observations

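At 24 h, 2 pathway genes outside the members differed more between 100 µg/ml MWCNT and TiO2-NB than any of the 35 did, TTF1 by 1.16 and ESF1 by 1.06 on the log2 scale. TTF1, which ends transcription of ribosomal RNA, read 6.66, 6.17 and 5.77 with 100 µg/ml TiO2-NB at 24 h, 7.16, 7.02 and 6.50 with 10 µg/ml TiO2-NB, 7.32, 7.57 and 7.59 in the control and 7.42, 7.44 and 7.22 with 100 µg/ml MWCNT. All arrays of the high TiO2-NB dose lay under all control and MWCNT arrays. ESF1, a nucleolar factor of small subunit RNA processing, read 7.24, 7.04 and 6.40 with 100 µg/ml TiO2-NB, 7.75, 7.16 and 7.05 with 10 µg/ml, 7.78, 7.96 and 7.72 in the control and 8.0, 7.93 and 7.92 with 100 µg/ml MWCNT, and again the high TiO2-NB dose lay lowest without overlap with the control. These genes varied more between TiO2-NB arrays than between control arrays, with SDs of 0.45 and 0.44 against 0.15 and 0.12 in the control. At 1 h with 10 µg/ml TiO2-NB, array 2 was low in both. TTF1 read 7.75, 6.62 and 7.73 there, and ESF1 7.56, 6.93 and 7.84. Both were singled out after their values were seen.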
